A study of Mus musculus with 12 samples.

Results

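The 30 genes described here encode resident proteins of the lysosome together with the transcription factor Tfeb and the secreted precursor progranulin (Grn). They were taken by symbol from a table of 24421 genes measured in astrocytes of the postnatal mouse cerebellum, and all 30 were found once. No value served as a criterion, but earlier results of these data were known when the genes were chosen. By role they comprised 6 lysosomal membrane proteins, 9 proteases, 9 glycosidases and glycosaminoglycan enzymes, 4 proteins that handle lipids and cholesterol, and the pair Tfeb and Grn. RNA was sequenced from GFP+ cells that had been sorted by flow cytometry from cerebella of the Aldh1l1-GFP mouse line on postnatal day 1 (P1), day 7 (P7), day 14 (P14) or day 28 (P28), with 3 libraries at each time point. All groups carried the same reporter, on a C57/BL6J background and with both sexes used, and none was treated. Age was the factor that defined the groups. The sources used here give no sex, sort day or batch for single libraries, so that age and batch cannot be told apart. In this line GFP is driven by regulatory sequence of Aldh1l1, a folate enzyme gene, and the sort therefore collected every dissociated cell with that activity, Bergmann glia and other cerebellar astrocytes alike. The labels do not say whether a library came from 1 animal or from several, so p-values measure the spread between these libraries.

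Lysosomes are acidic organelles in which hydrolases break down proteins, glycans and lipids that arrive from endocytosis, phagocytosis and autophagy. A proton pump, the V-ATPase, keeps the lumen acidic, a coat of heavily glycosylated membrane proteins lines the limiting membrane, and most soluble enzymes are carried from the Golgi by mannose 6-phosphate receptors. The transcription factor TFEB binds a palindromic sequence known as the CLEAR element in the promoters of many lysosomal genes and is held in the cytoplasm by the kinase mTORC1 when nutrients are plentiful. Loss of many of these proteins causes storage disorders with prominent brain disease, among them the neuronal ceroid lipofuscinoses, the mucopolysaccharidoses and Niemann-Pick type C disease, in which the cerebellum is often affected.

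The E-box CACGTG, the core of the CLEAR element, was searched in the RefSeq promoter windows of the reference (GRCm38.p6), each of which spans 250 bases before to 50 bases after a gene's start. A window was given for 27 of the 30 genes, and 9 of these (33.3%) held at least 1 E-box, against 8.09% of all 27025 genes with a window. The longer palindrome TCACGTGA was present in 4 of the 27 (14.8%; 1.12% of all genes), and the 10-base GTCACGTGAC in Cln3 (1 of 27; 0.37% of all genes). All 3 motifs are palindromes, so that 1 search covers both strands, and each longer motif contains the shorter ones. The following stretches, 5′ to 3′ on the strand of the gene and with each E-box in capitals, are shown because they carry the most E-boxes (Lamp1), one of the longer palindromes (Ctsd, Mcoln1, Cln3, Ctsa), or the E-box of examples of genes that changed across the series (Gaa, Ctsf).
Lamp1 (chr8:13159081-13159160, + strand): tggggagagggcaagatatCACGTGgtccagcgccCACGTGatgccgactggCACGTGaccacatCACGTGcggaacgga
Ctsd (chr7:142387908-142387937, - strand): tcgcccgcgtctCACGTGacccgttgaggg
Mcoln1 (chr8:3500459-3500488, + strand): ttcaggcgccccgctCACGTGaccgcggcg
Cln3 (chr7:126583342-126583371, - strand): ctcacgggtactgtCACGTGacccccaacc
Ctsa (chr2:164833743-164833772, + strand): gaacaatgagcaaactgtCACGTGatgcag
Gaa (chr11:119267803-119267852, + strand): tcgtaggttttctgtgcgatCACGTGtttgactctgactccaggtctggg
Ctsf (chr19:4855065-4855114, + strand): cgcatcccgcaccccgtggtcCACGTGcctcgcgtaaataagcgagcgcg
The Lamp1 stretch ends at the base before the RefSeq start and holds 4 E-boxes within 80 bases, and in GENCODE M21 the stretches of Lamp1, Gaa and Ctsf lie outside any annotated gene. Those of Ctsd, Mcoln1, Cln3 and Ctsa lie before the RefSeq start but within a 5′ exon (UTR) of a longer transcript of the same gene. The windows of Ctsa, Cln3, Ctsd and Mcoln1 each held 1 more E-box outside the stretch shown, and those of Ctsl and Naglu held 1 each. No window of Tfeb held the motif. These matches describe the letters of the windows and were not set against binding data.

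Depth ranged from 6399499 to 14733985 reads assigned to genes per library, and values are given below as normalized counts (read counts divided by the size factor of their library). The astrocyte markers (11 genes, Slc1a3 and Slc1a2 the most abundant) were detected at every age, and summed to 0.613 to 0.723% of the reads of P1 libraries, 0.348 to 0.610% of those of P7, 1.42 to 1.78% of those of P14 and 2.81 to 2.95% of those of P28. Transcripts of other cells were present too, and at P14 the 9 oligodendrocyte markers (Mbp among the most abundant) summed to more than the astrocyte markers, at 3.11 to 3.62% of reads, compared with 0.0176 to 0.0260% at P1, 0.252 to 0.383% at P7 and 0.813 to 1.20% at P28. The 14 microglial markers, from cells rich in lysosomes, stayed between 0.0128 and 0.0413% in all 12 libraries, and none of the 14 was at 0 at any age. The 8 choroid plexus markers summed to 0.0142 to 0.0297% at P1, where Otx2 (mean of 1240 normalized counts) stood above Ttr (399). Led by Ttr, they summed to 0.561 to 1.55% at P7. They then varied from library to library, between 0.0131 and 1.10% at P14 and between 0.143 and 1.52% at P28. The 5 general neuron markers (Snap25 among them) ranged in sum between 0.0191 and 0.0540% in P1 libraries and between 0.0773 and 0.0968% in those of P7, peaked with P14 (between 0.212 and 0.382%) and were lower again by P28 (between 0.111 and 0.145%). Those of granule neurons (5 genes) were also highest at P14, at 0.0664 to 0.148%. The 4 genes listed for granule neuron precursors went from 0.126 to 0.177% at P7 to 0.00333 to 0.00695% at P14. This sum mostly followed Mki67, a gene of dividing cells of any type, with mean normalized counts of 11544 at P7 and 394 at P14. Mycn, the next most abundant over the series, was at 776 and 46.7. In sorted bulk RNA fewer cells of a type and less RNA per cell cannot be told apart, and the part of these other cells in the results below was not tested.

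**Figure D1:**
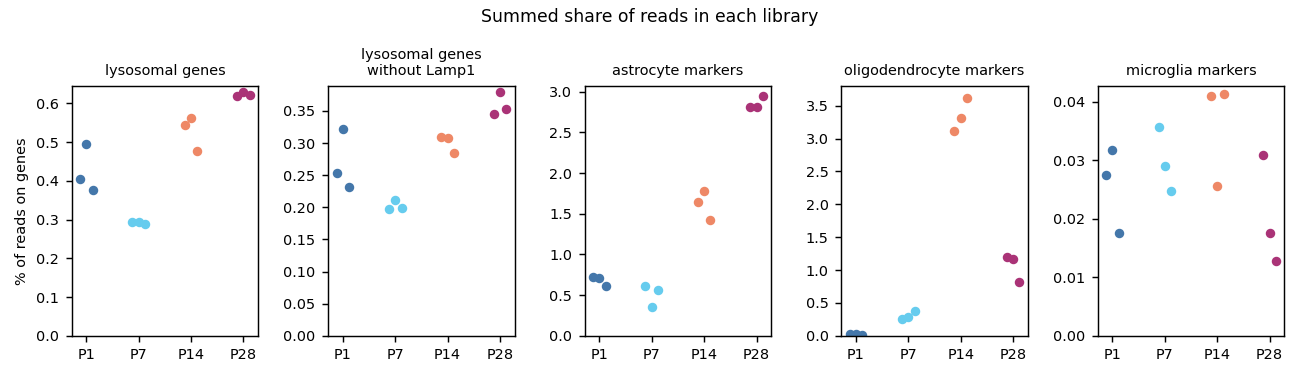
Summed share of reads (% of reads on genes, linear axes from 0) in each library at P1, P7, P14 and P28 for the 30 lysosomal genes, for the same genes without Lamp1, and for the astrocyte, oligodendrocyte and microglia marker lists. Each point is 1 library; the lysosomal genes are lowest at P7 (0.289 to 0.294%) and highest at P28 (0.618 to 0.629%), the oligodendrocyte markers peak at P14, and the microglia markers stay at or below 0.0413%.

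Together the 30 genes took 0.376 to 0.496% of reads in the P1 libraries and 0.289 to 0.294% in those of P7, followed by 0.477 to 0.562% in those of P14 and 0.618 to 0.629% in those of P28. All 3 P7 libraries lay below every P1 library, and all 3 P28 libraries lay above every other library. Lamp1 alone supplied 27.9 to 45.1% of these reads. Without it the sums were 0.232 to 0.322%, 0.198 to 0.212%, 0.285 to 0.309% and 0.346 to 0.380%, with the P7 libraries again below all others and the P28 libraries above. P1 and P14 overlapped in both sums. The mean was lowest at P7 for 23 of the 30 genes, whereas P7 was the lowest point for 23.7% of all 15464 genes tested, and 22 of the 30 had their top mean at P28, as did 31.1% of all genes tested.

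As RPKM (recovered reads scaled to exon length and to the library's total), Lamp1 was by far the most abundant, with means of 705, 398, 1017 and 1180 at P1, P7, P14 and P28. The length was that of all annotated exons of a gene merged (GENCODE M21), while reads were counted on UCSC transcripts, so that places depend on the annotation. At P14 Ctsl (6168 bases) and Ctsd (2127 bases) had mean normalized counts of 2269 and 2453, but RPKM of 35.8 and 112. Laptm4a, a small membrane protein of late endosomes and lysosomes, was second by mean at every age, with 158, 137, 146 and 218. Its libraries overlapped those of Ctsd at P1 (108 to 226 against 84.9 to 120) and at P28 (212 to 228 against 99.9 to 266). At P1 they also overlapped those of Tpp1 (67.4 to 113). The aspartic protease Ctsd and the peptidase Tpp1 took the next places, averaging 116 and 107 over the 4 ages, and exchanged their order between P7 and P14. Their libraries overlapped at P1, P14 and P28, where these neighbours did not differ beyond their spread, whereas at P7 all 3 libraries of Ctsd (72.0 to 82.9) lay above those of Tpp1 (50.6 to 57.3). Lamp2 (57.5) and Ctsb (46.5) came in places 5 and 6 at every age, and their libraries overlapped at every age but P7. From place 7 on, means over the 4 ages were below 30 and the order changed with age. Naglu was the lowest at every age, with an average of 1.08. The biggest moves in rank were those of Ctso, from place 22 at P7 to 8 at P28, of Gaa, from 20 to 7, and of Npc1, from 8 at P14 to 19 at P28.

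**Figure D2:**
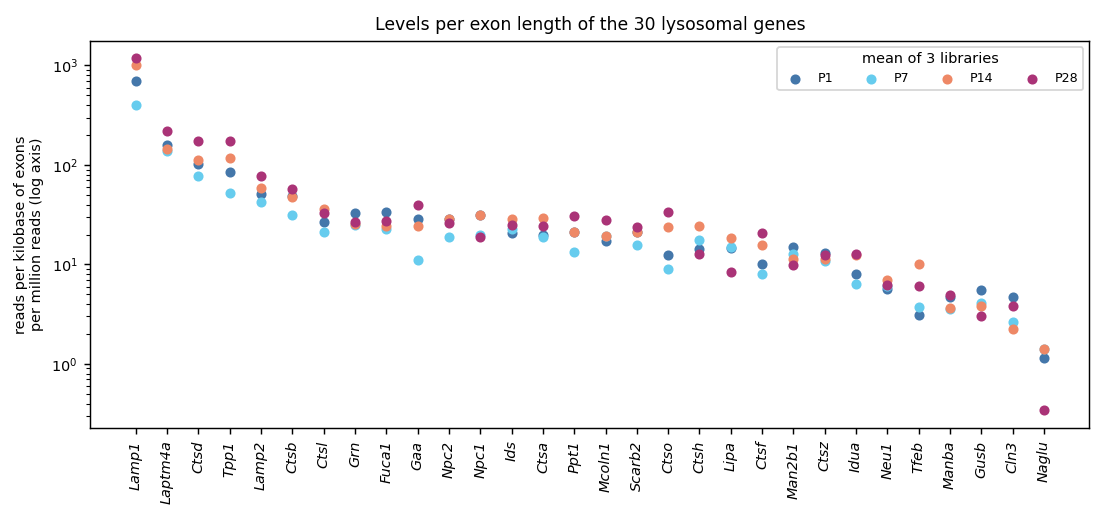
Level of each of the 30 genes as recovered reads scaled to exon length and library total (RPKM, log axis), ordered by the mean over the 4 time points. Each point is the mean of 3 libraries at 1 time point; Lamp1 leads at every age (398 to 1180), and Naglu is last.

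Changes were tested with limma on log2(normalized count + 1), with Benjamini-Hochberg adjustment over the 15464 genes tested. All 30 genes passed the filter on low values, and a gene was said to rise or fall where its adjusted p was under 0.05. Fold changes are on that log2 scale, which understates the change of low genes. Of the 30 genes, 3 fell from P1 to P7 and then rose in both later steps (Gaa, Ppt1 and Tpp1), 2 fell and then rose at P14 without a further call (Lamp1 and Npc1), 1 rose in both later steps (Lamp2), 7 rose from P7 to P14 alone (Ctsb, Ctsl, Ctsf, Ctso, Ctsa, Npc2 and Tfeb), and Laptm4a rose from P14 to P28 alone. The other 16 passed the test in no step, and 2 of those, Ctsd and Ids, were higher at P28 than at P1. A pass in 1 step and not in another does not show that the steps differ, which was not tested.

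In the first postnatal week (P7 versus P1) 5 of the 30 genes fell, namely Gaa, Lamp1, Npc1, Tpp1 and Ppt1, where 4.24% of all genes tested fell and 3.47% rose. The estimate was negative for 23 of the 30, and the median log2 change was -0.42, against 0.04 over all genes tested. No gene of the 30 rose by limma, at an unadjusted p under 0.05, by edgeR or by DESeq2, whereas 8 were lower at an unadjusted p under 0.05. The study set a fold change threshold beside its p, read here as an unadjusted p under 0.05 and a log2 change over 0.75 in size. That reading, which 14.2% of all genes met in either direction, called 2 of the 30, Lamp1 and Gaa, both lower. With each library left out in turn, Lamp1 and Gaa kept their adjusted p under 0.05, while the other 3 lost it for at least 1 library, with the largest adjusted p at 0.191 for Ppt1 without P7 replicate 3, 0.117 for Npc1 without P1 replicate 1 and 0.109 for Tpp1 without P1 replicate 2.

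In the second week (P14 versus P7) 13 of the 30 genes rose, where 10.8% of all genes tested rose and 10.0% fell. The median log2 change was 0.77, against -0.09 over all genes, and 29 of the 30 estimates were positive, Cln3 being the exception at -0.02. No gene of the 30 fell by limma, at an unadjusted p under 0.05, by edgeR or by DESeq2. The fold threshold was met by 14 of the 30, all higher, and by 26.2% of all genes in either direction. Scaling by library totals alone, under which the median of all genes moved to -0.34, left 8 rises and 25 positive estimates. Of all 15464 genes, it called 1203 higher and 2451 lower. The rises of Ctsa, Ctsb, Ctsf and Npc2 were lost when 1 of several libraries was left out, the largest adjusted p being 0.138 for Ctsa and 0.0892 for Ctsb without P14 replicate 2, 0.155 for Ctsf without P14 replicate 1 and 0.111 for Npc2 without P14 replicate 3.

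From P14 to P28, 5 of the 30 genes rose (Gaa, Tpp1, Laptm4a, Ppt1 and Lamp2), where 5.68% of all genes tested rose and 8.76% fell. The median log2 change was 0.35, against -0.12 over all genes. None of the 30 fell by limma or by edgeR, 1 fell by DESeq2 (Npc1), and 3 were lower at an unadjusted p under 0.05 (Naglu, Lipa and Npc1). The fold threshold was met by 8 of the 30, of which 6 were higher and 2 lower (Naglu and Lipa), and by 24.1% of all genes in either direction. Tpp1 alone kept its call with any library left out, while the largest adjusted p was 0.103 for Lamp2, 0.0661 for Laptm4a and 0.107 for Gaa without P14 replicate 3 and 0.0695 for Ppt1 without P14 replicate 1. Scaling by library totals alone, under which the median of all genes moved to -0.35, left 1 rise and added 2 falls, those of Lipa and Npc1. Of all 15464 genes, it called 456 higher and 1938 lower.

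Over the whole period (P28 versus P1) 13 of the 30 genes were higher, where 14.6% of all genes tested were higher and 20.0% lower. The median log2 change was 0.66, against -0.24 over all genes. No gene of the 30 was lower by limma, edgeR or DESeq2, and 1 was lower at an unadjusted p under 0.05 (Naglu). The fold threshold was met by 13 of the 30, of which 12 were higher and 1 lower (Naglu), and by 39.3% of all genes in either direction. Without P1 replicate 3 the adjusted p rose to 0.177 for Ctsb and 0.0782 for Gaa, without P28 replicate 3 to 0.0841 for Ids and without P1 replicate 1 to 0.0683 for Tfeb, whereas the other 9 calls were kept with any library left out. With scaling by library totals alone 6 genes were higher and 2 were lower, Naglu and Npc1, where 1369 of all 15464 genes were higher and 5133 lower.

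**Figure D3:**
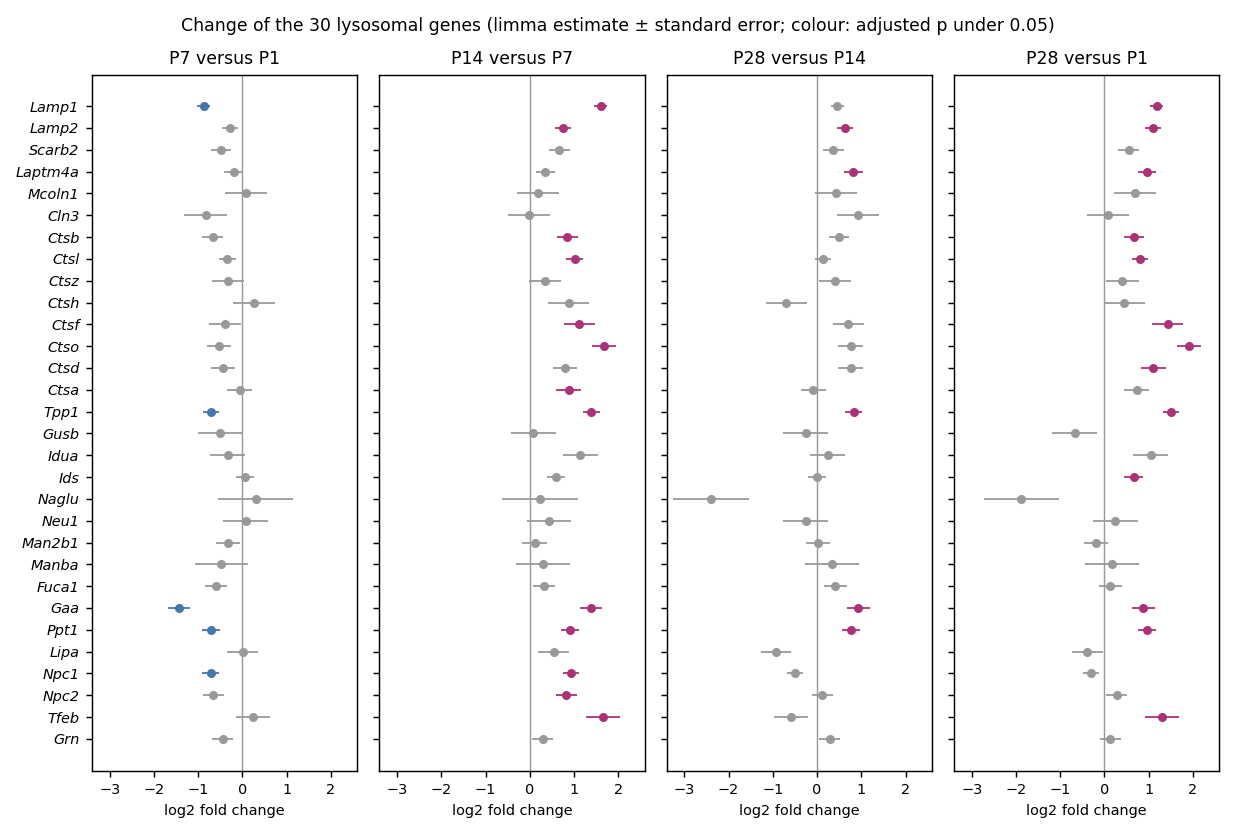
Log2 fold change of the 30 genes in the 4 comparisons, as limma estimates with bars of 1 standard error; colour marks an adjusted p under 0.05 (blue lower, purple higher, grey not called). From P7 to P14, 29 of 30 estimates are above 0; from P1 to P7, 23 of 30 are below 0.

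Lamp1 and Lamp2 are the main glycoproteins of the lysosomal membrane. Lamp1 (chr8:13159161-13175338) was measured at 13818, 15943 and 12524 normalized counts at P1, at 8214, 6853 and 7866 at P7, at 23687, 26415 and 19829 at P14, and at 31725, 30108 and 33847 at P28. No group overlapped another. It fell 1.84-fold to P7 (log2 change -0.88 ± 0.15 SE, limma adjusted p = 0.0022) and then rose 3.04-fold to P14 (1.60 ± 0.15, adjusted p = 4.4e-06). The further difference of 0.46 to P28 had an adjusted p of 0.051 and fell under the threshold without 1 of 3 other libraries (0.041 without P1 replicate 2). Leaving out P14 replicate 3 raised it to 0.188. Across the series Lamp1 was 2.27-fold higher at P28 than at P1 (adjusted p = 3.4e-05). Of its exon bases, 7.94% are shared with Grtp1 on the opposite strand.

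Lamp2 (chrX:38401357-38456454), which also serves as a receptor in chaperone-mediated autophagy, was at 1843, 3125 and 1899 at P1, at 1787, 1925 and 1775 at P7, at 3141, 3127 and 2947 at P14, and at 4457, 5250 and 4533 at P28. P1 replicate 2 stood at the level of P14, and the P1 and P7 libraries overlapped. Lamp2 rose 1.68-fold to P14 (log2 change 0.75 ± 0.18 SE, limma adjusted p = 0.0093) and a further 1.54-fold to P28 (0.62 ± 0.18, adjusted p = 0.036). Without P14 replicate 3 the adjusted p of the later rise was 0.103.

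Of the other membrane proteins, Laptm4a rose 1.76-fold from P14 (2586 to 2759) to P28 (4384 to 5110; adjusted p = 0.020, or 0.0661 without P14 replicate 3). Scarb2, a membrane receptor that carries a hydrolase to the lysosome, ranged from 573 to 668 at P7 and from 785 to 1266 at P14, with no overlap. Its adjusted p was 0.055 (0.023 without P28 replicate 1, and 0.218 without P14 replicate 2). Mcoln1, the TRPML1 calcium channel, ranged from 237 to 504 over the 9 libraries of P1 to P14. At P28 its values were 1396, 389 and 257, and no comparison passed the test.

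Cln3, whose loss causes juvenile neuronal ceroid lipofuscinosis, was at 124, 205 and 99.2 at P1, at 76.4, 64.1 and 89.1 at P7, at 83.7, 91.0 and 55.4 at P14, and at 83.3, 218 and 164 at P28. All P7 libraries were below those of P1, but the P28 libraries overlapped those of every other age. Its log2 difference of -0.84 at P7 (adjusted p = 0.40) and of 0.93 at P28 against P14 (adjusted p = 0.21) did not pass. Of its exon bases 13.2% are shared with Apobr on the opposite strand, and the files do not say whether strand was used in counting.

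The proteases changed most often in the second week, when 6 of 9 rose (66.7%, against 10.8% of all genes tested). Tpp1 (chr7:105744811-105752235), the tripeptidyl peptidase that is lost in late infantile ceroid lipofuscinosis, was at 2433, 3680 and 2085 at P1, at 1561, 1707 and 1583 at P7, at 4680, 4187 and 3895 at P14, and at 7284, 8391 and 6974 at P28. Its groups did not overlap. Tpp1 fell 1.64-fold to P7 (log2 change -0.72 ± 0.19 SE, limma adjusted p = 0.029, or 0.109 without P1 replicate 2), rose 2.63-fold to P14 (1.39 ± 0.19, adjusted p = 9.9e-05) and rose 1.77-fold to P28 (0.83 ± 0.19, adjusted p = 0.00997).

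Ctso (chr3:81932601-81956725), a cysteine cathepsin, showed the largest net rise among the 30 genes, 3.74-fold from P1 to P28 (log2 change 1.90 ± 0.27 SE, limma adjusted p = 1.0e-04). Its values were 272, 498 and 391 at P1, 344, 219 and 236 at P7, 860, 1004 and 670.0 at P14, and 1181, 1374 and 1717 at P28. Only P1 and P7 overlapped. The rise from P7 to P14 was 3.18-fold (adjusted p = 5.2e-04), and the later difference of 0.76 had an adjusted p of 0.078.

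The cysteine cathepsins Ctsb and Ctsl are broadly expressed endopeptidases. Ctsl rose 2.02-fold to P14, from 1090 to 1174 at P7 to 2043 to 2475 (adjusted p = 0.0017), and changed by 0.13 thereafter (adjusted p = 0.69). Ctsb rose 1.80-fold in the same step (adjusted p = 0.017, or 0.0892 without P14 replicate 2). Ctsl shares 28.2% of its exon bases with Gm47123 and Ctsb 16.3% with Fdft1, both on the opposite strand. Ctsf rose 2.18-fold, from 131 to 140 at P7 to 170 to 429 at P14 (adjusted p = 0.037, or 0.155 without P14 replicate 1).

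Ctsa, the serine carboxypeptidase that protects β-galactosidase and neuraminidase, rose 1.84-fold to P14 (adjusted p = 0.038, or 0.138 without P14 replicate 2). Of its exon bases 13.5% are shared with Pltp and 8.82% with Neurl2, both on the opposite strand. Ctsd, the main aspartic protease of lysosomes, was 2.15-fold higher at P28 than at P1 (adjusted p = 0.0072). Its P28 libraries read 2474, 6857 and 4095. Leaving out the highest, P28 replicate 2, moved the log2 difference from P14 to P28 from 0.76 to 0.39 and that from P1 to P28 from 1.11 to 0.74, the latter still at an adjusted p of 0.024. Of the exon bases of Ctsd 31.5% are shared with Gm49369 on the same strand, so that its reads could have been split between the 2 genes.

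Ctsh, a cathepsin with aminopeptidase activity, was at 158, 378 and 98.4 at P1, at 205, 391 and 128 at P7, at 335, 471 and 407 at P14, and at 212, 303 and 235 at P28. The highest library of each age was replicate 2, and whether that number links libraries of different ages is not known. The endothelial and pericyte markers were also highest in replicate 2 at P1, P7 and P14 (0.0609, 0.151 and 0.0798% of reads) but not at P28. The choroid plexus markers were highest in replicate 2 at P1, P7 and P28 (0.0297, 1.55 and 1.52%) but not at P14. Those of Purkinje cells were so at every age but P1, though at P14 only with 0.0195% against 0.0192% in replicate 3. The microglial markers were highest in replicate 2 at P1 alone (0.0318%) and lowest there at P14 (0.0256%). No marker list was highest in replicate 2 at every age. The part of these cells in the values of Ctsh was not tested. P28 lay below P14 in every library, with a log2 difference of -0.69 and an adjusted p of 0.35. Ctsz, a carboxypeptidase, ranged from 105 to 239 over the 12 libraries and passed no test.

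**Figure D4:**
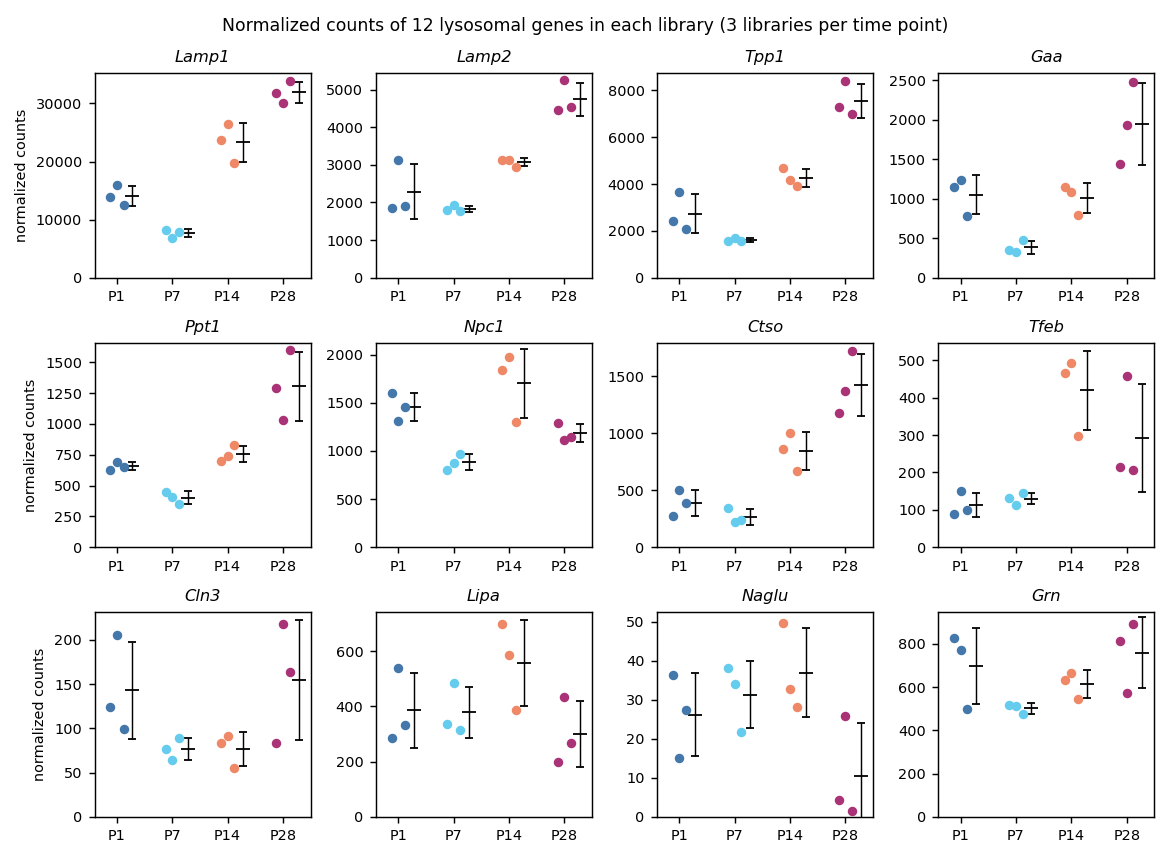
Normalized counts of 12 of the 30 genes in each library (points) with the mean and SD of the 3 libraries of each time point (bars), on linear axes from 0. Lamp1, Tpp1, Gaa and Ppt1 are lowest at P7 and highest at P28, Npc1 is higher at P14 than at P28, and the P28 libraries of Cln3 and Naglu spread widely.

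Among the glycosidases and glycosaminoglycan enzymes Gaa was the only one of 9 that passed a test in a step. That is 11.1% of the list in each step. Of all genes tested, 4.24% fell to P7, 10.8% rose to P14 and 5.68% rose to P28, so that the share at P14 was that of all genes. At P28 against P1, 22.2% of the list were higher, against 14.6% of all genes. Gaa (chr11:119267887-119285454), the acid α-glucosidase that breaks down lysosomal glycogen and is lost in Pompe disease, had the largest fall of the 30 genes to P7. It was at 1149, 1232 and 776 at P1, at 351, 329 and 481 at P7, at 1154, 1087 and 788 at P14, and at 1444, 1931 and 2480 at P28. P1 and P14 lay at the same level, P7 below both and P28 above. The fall was 2.70-fold (log2 change -1.43 ± 0.25 SE, limma adjusted p = 0.0030), and the rises were 2.61-fold to P14 (1.38 ± 0.25, adjusted p = 0.0014) and 1.91-fold to P28 (0.93 ± 0.25, adjusted p = 0.025). Leaving out P14 replicate 3 raised the last of these to 0.107.

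Ids, the iduronate sulfatase lost in Hunter syndrome, was 1.58-fold higher at P28 (1067 to 1891) than at P1 (895 to 997; adjusted p = 0.023, or 0.0841 without P28 replicate 3). For Idua, the iduronidase that acts after it in the breakdown of dermatan and heparan sulfate, the 3 P14 libraries (273 to 596) lay above the 3 of P7 (154 to 227). The log2 difference was 1.14, with an adjusted p of 0.056 (0.029 without P28 replicate 3, and 0.202 without P14 replicate 1). The net difference of Idua was 1.04 (adjusted p = 0.055, or 0.014 without P28 replicate 2 and 0.196 without P1 replicate 3). Gusb, Neu1, Man2b1, Manba and Fuca1, which remove glucuronic acid, sialic acid, mannose (both Man2b1 and Manba) and fucose, passed in no comparison.

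Naglu (chr11:101070012-101077672), the N-acetylglucosaminidase of heparan sulfate breakdown, was the least abundant of the 30. Its values were 36.3, 15.0 and 27.3 at P1, 38.2, 34.0 and 21.7 at P7, 49.8, 32.8 and 28.2 at P14, and 4.38, 25.9 and 1.35 at P28, the last 3 resting on 3, 22 and 1 reads. The P28 libraries lay below those of P14, with a log2 difference of -2.40 and an adjusted p of 0.075. Without P28 replicate 2 the difference was -3.37 (adjusted p = 0.0089), and without P28 replicate 3 it was -1.61 (adjusted p = 0.18), so that the value rested on single libraries.

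Ppt1 (chr4:122836242-122859175), the palmitoyl-protein thioesterase lost in infantile ceroid lipofuscinosis, was at 629, 692 and 651 at P1, at 447, 411 and 350 at P7, at 702, 738 and 829 at P14, and at 1287, 1033 and 1596 at P28. No group overlapped another. Ppt1 fell 1.64-fold to P7 (log2 change -0.71 ± 0.20 SE, limma adjusted p = 0.043), a call that was lost when any 1 of 9 libraries was left out, at most at 0.191 without P7 replicate 3, and that edgeR did not make (adjusted p = 0.053). It then rose 1.88-fold to P14 (0.91 ± 0.20, adjusted p = 0.0047) and 1.70-fold to P28 (0.77 ± 0.20, adjusted p = 0.021). Leaving out P14 replicate 1 raised the last of these to 0.0695.

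Npc1 and Npc2 hand cholesterol out of the lysosome, Npc2 in the lumen and Npc1 in the membrane. Npc1 (chr18:12189692-12236400) was at 1601, 1313 and 1452 at P1, at 802, 876 and 969 at P7, at 1837, 1973 and 1298 at P14, and at 1287, 1110 and 1149 at P28. Npc1 fell 1.65-fold to P7 (log2 change -0.72 ± 0.18 SE, limma adjusted p = 0.026, or 0.117 without P1 replicate 1) and rose 1.90-fold to P14 (0.93 ± 0.18, adjusted p = 0.0023). At P28 every library was below every library of P14 and of P1, with log2 differences of -0.51 (adjusted p = 0.080) and -0.30 (adjusted p = 0.23). The adjusted p against P14 was 0.033 without P14 replicate 3 and 0.237 without P14 replicate 2. Npc2 rose 1.77-fold to P14 (483 to 573 at P7, 741 to 1245 at P14; adjusted p = 0.024, or 0.111 without P14 replicate 3) and ranged from 837 to 1269 at P28.

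Lipa, the acid lipase that frees cholesterol and fatty acids from the esters taken up with lipoproteins, was at 285, 539 and 334 at P1, at 338, 486 and 315 at P7, at 698, 587 and 389 at P14, and at 197, 434 and 269 at P28. The groups overlapped throughout, and the log2 difference of -0.93 from P14 to P28 had an adjusted p of 0.089 (-1.23 and 0.028 without P28 replicate 2). Without P14 replicate 1 the difference was -0.75, with an adjusted p of 0.253. Of the 4 genes that handle lipids, Ppt1 was thus the only one to pass the test at P28 against P14 or against P1.

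Tfeb (chr17:47737030-47792419) was at 89.2, 151 and 99.2 at P1, at 131, 114 and 145 at P7, at 466, 493 and 299 at P14, and at 213, 458 and 206 at P28. The libraries of P14 lay well above those of P1 and P7, and P28 overlapped P14. It rose 3.15-fold from P7 to P14 (log2 change 1.65 ± 0.38 SE, limma adjusted p = 0.0063), was 2.46-fold higher at P28 than at P1 (1.30 ± 0.38, adjusted p = 0.017, or 0.0683 without P1 replicate 1), and differed by -0.59 between P14 and P28 (adjusted p = 0.32).

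Grn, whose product is taken into lysosomes and cut into granulins, was at 829, 770.2 and 497 at P1, at 517, 514 and 474 at P7, at 632, 666 and 544 at P14, and at 811, 574 and 891 at P28. Its log2 differences of -0.44, 0.29 and 0.29 in the 3 steps had adjusted p values of 0.35, 0.45 and 0.45.

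The libraries of P7 were close to each other for these genes: the median coefficient of variation over the 30 was 10.4% at P7, against 25.5% at P1, 21.6% at P14 and 27.0% at P28, where the medians over all genes tested were 17.4%, 23.6%, 29.1% and 46.4%.

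Other genes of the lysosome were counted from lists that did not contain the 30, and Slc36a1, Cd63, Lmbrd1, Ctsk, Gga2, Rragd and Lamtor5 are named below because they passed the test. Of the 18 V-ATPase genes tested (of 19), 7 rose from P7 to P14, 1 rose from P14 to P28 and 8 were higher at P28 than at P1, with median log2 changes of 0.67, 0.03 and 0.77. These are 38.9, 5.56 and 44.4% of the list, where 10.8, 5.68 and 14.6% of all genes tested were called higher, so that the share at P28 against P14 was that of all genes. Atp6ap1, an accessory subunit, rose 1.82-fold to P14 (limma adjusted p = 0.0037), and Atp6v0d1, a subunit of the membrane sector, rose 1.85-fold to P28 (adjusted p = 0.0041). The largest rise to P14 was that of Atp6v1g2, a subunit enriched in neurons, from 70.6 ± 11.4 to 699 ± 495 (mean ± SD, n = 3; adjusted p = 8.9e-04). The neuron marker Snap25 went from 2303 ± 407 to 21594 ± 7880 in the same step (limma adjusted p = 2.3e-06), and the part of neurons in the rise of Atp6v1g2 was not tested. Atp6v0a1, the most abundant subunit with Atp6ap1, passed in no comparison. Between P1 and P7, where 6 of the other hydrolases fell, the median of the V-ATPase list was 0.03.

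Of 32 other hydrolases and their cofactors tested (of 34), 6 fell to P7 (18.8%, against 4.24% of all genes tested), 11 rose to P14 (34.4%, against 10.8%), and 8 of 32 rose (against 5.68% of all genes) and 2 fell (6.25%, against 8.76%) from P14 to P28. Psap, the precursor of the saposins that present sphingolipids to their hydrolases, followed the course of Lamp1 and Tpp1: it ranged from 3230 to 4608 in the P1 libraries and from 1887 to 2161 in those of P7, and then from 5386 to 6311 at P14 and from 11318 to 11874 by P28, with no overlap. Psap fell 2.02-fold (limma adjusted p = 9.4e-04), rose 2.99-fold (adjusted p = 6.1e-06) and rose 1.94-fold (adjusted p = 0.0015). Tmem106b, a lysosomal membrane protein counted in this list, changed in the same 3 directions (adjusted p = 0.018, 2.3e-04 and 0.0087; for the first 0.0889 without P7 replicate 2). Gm2a, the GM2 activator, had the largest called fall to P7 (2.45-fold, adjusted p = 0.0043) and the largest called rise to P14 (3.23-fold, adjusted p = 1.9e-04) of the list.

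Sgsh, the sulfamidase that acts on heparan sulfate as Naglu does, fell from 195 ± 51.5 at P14 to 62.6 ± 72.1 at P28 (mean ± SD, n = 3; adjusted p = 0.043, or 0.137 without P14 replicate 3). The call of Sgsh was lost without any 1 of 11 libraries and was made neither by edgeR (adjusted p = 0.13) nor by DESeq2 (adjusted p = 0.071). Over the whole period 11 genes of the list were higher (34.4%, against 14.6% of all genes) and 1, Sgsh, was lower, a call that was lost without any 1 of 8 libraries (largest adjusted p 0.126, without P28 replicate 2).

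Of 24 other membrane proteins tested (of 25), 1 fell to P7 (Tpcn1; 4.17%, against 4.24% of all genes), 7 rose to P14 (29.2%, against 10.8%), and 9 were higher (37.5%, against 14.6%) and 2 lower (Laptm5 and Slc36a1; 8.33%, against 20.0%) at P28 than at P1. From P14 to P28, 3 rose (Tpcn1, Cd63 and Lmbrd1; 12.5%, against 5.68%) and 2 fell (Abca2 and Laptm5; 8.33%, against 8.76%). Slc29a3, a nucleoside transporter, rose 4.31-fold to P14 (limma adjusted p = 4.7e-05). Tpcn1, an endolysosomal cation channel, fell 2.02-fold to P7 (adjusted p = 0.0031), rose 1.66-fold to P14 (adjusted p = 0.0097) and rose 2.35-fold to P28 (adjusted p = 9.4e-04). Abca2, a transporter abundant in oligodendrocytes, rose 3.21-fold to P14 (adjusted p = 2.7e-06) and fell 1.68-fold to P28 (adjusted p = 0.0049). The summed oligodendrocyte markers also rose and then fell in these steps. From P1 to P7 that sum went from 0.0176 to 0.0260% of reads to 0.252 to 0.383%, while Abca2 passed no test (1.14-fold, adjusted p = 0.58). The part of oligodendrocytes in the values of Abca2 was not tested. Laptm5, a protein of blood-derived cells and microglia, fell from 140 ± 104 at P14 to 18.9 ± 15.7 at P28 (mean ± SD, n = 3; adjusted p = 0.033, or 0.13 without P14 replicate 1), and its lower level at P28 than at P1 was lost without any 1 of 4 libraries (largest adjusted p 0.132, without P1 replicate 2).

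Cathepsins typical of blood cells and microglia were low: Ctss ranged from 20.4 to 288 over the 12 libraries and passed in no comparison, nor did Ctsc. Ctsw, of killer lymphocytes, was between 3.57 and 52.4 at P1 to P14 and at 0 in all 3 libraries of P28, where a count of 0 allows up to 3 reads in a library. It was the one of 4 tested (of 6) that fell after P14 (limma adjusted p = 0.016). Leaving out P14 replicate 3 raised this to 0.0689. Both Ctsw and Ctsk were lower at P28 than at P1. The cathepsin inhibitor Cst3, cystatin C, which astrocytes make in abundance, fell 1.99-fold to P7 (limma adjusted p = 9.7e-04) and rose 3.60-fold to P14 (adjusted p = 1.5e-06). It was at 8904 ± 683 at P14 and 8422 ± 944 at P28 (mean ± SD, n = 3; adjusted p = 0.75), while Cstb, a cytosolic inhibitor, passed no test.

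Of the 18 genes that sort enzymes to the lysosome, 2 rose to P14, 1 rose to P28, and 6 were higher and 1 lower (Gga2) at P28 than at P1. The shares that rose in these steps (11.1 and 5.56%) were those of all genes tested (10.8 and 5.68%), and 33.3% were higher over the whole period, against 14.6% of all genes. The 2 that rose to P14 were Gnptab and Gnptg, which encode subunits of the phosphotransferase that begins the mannose 6-phosphate tag and rose 1.80-fold and 2.00-fold (limma adjusted p = 0.0081 and 0.0074). Sort1, sortilin, a receptor that carries prosaposin and progranulin, rose 1.76-fold to P28 (adjusted p = 0.032). Without P14 replicate 3 its adjusted p was 0.133. Of 16 genes tested (of 17) that regulate lysosomes with or like Tfeb, Mitf, its relative, was the one that rose to P7, from 67.2 ± 7.46 to 189 ± 45.6 (adjusted p = 0.015, or 0.0966 without P7 replicate 2), and it was 6.73-fold higher at P28 than at P1 (adjusted p = 2.8e-05). In the same list Rragd fell to P7 and Lamtor5 was higher at P28 than at P1. The shares of this list at P7 were 6.25% higher and 6.25% lower, against 3.47 and 4.24% of all genes tested. None of its 16 genes passed in either later step, where 10.8 and 5.68% of all genes rose. The share that was higher over the whole period was 12.5%, against 14.6% of all genes. Mtor and Rptor, components of mTORC1, passed in no comparison.

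**Figure D5:**
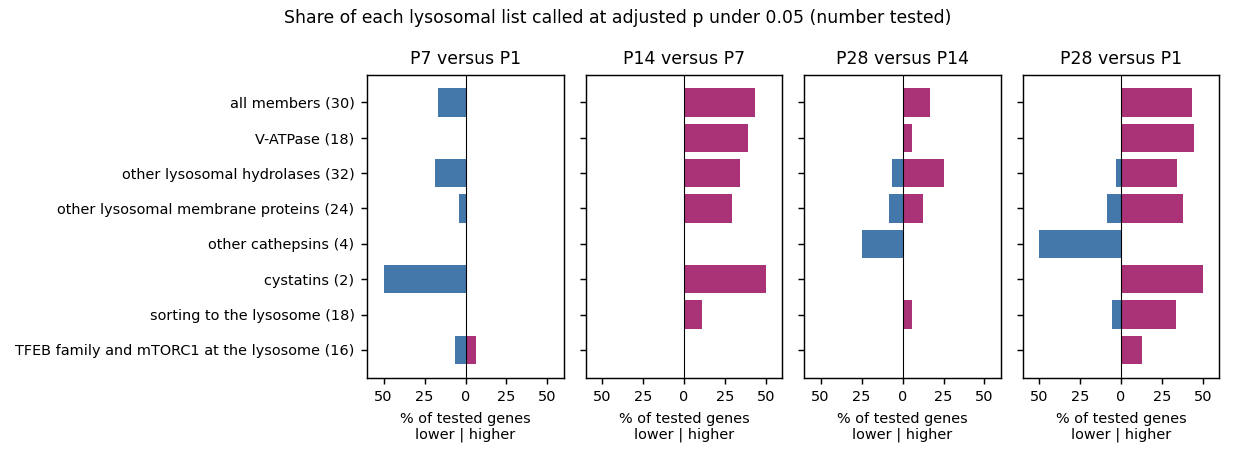
Share of the tested genes of each list that passed an adjusted p of 0.05, in % of the genes tested (bars to the left lower, to the right higher), for the 30 genes (all members), 5 lists of other lysosomal genes, cystatins, and regulators. The number tested is in parentheses; the lists of 2 and 4 genes are too short to compare by share.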

How the data were processed

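RNA of GFP+ cells (polyA RNA per the labels, with libraries made from total RNA by the NuGEN Trio kit) was sequenced in paired ends, with 3 libraries for each time point. The authors deposited 1 table of gene counts divided by DESeq2 size factors, which is a signal normalized across libraries and not raw counts. Per the labels, STAR 2.5.0a, the build mm10 and DESeq2 1.30.1 were used. Counts were built with GenomicAlignments and GenomicFeatures on UCSC transcripts, and whether strand was used is not given in the sources used here. The columns are matched to samples through the labels' descriptions, although every column name carries the mark P28, and 0 columns were left without a sample. Whole reads could be recovered for 100.0% of values (tolerance 0.001), and totals were 6399499 to 14733985 reads per library.

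The 15464 genes that reached a value of 10 in 3 or more libraries were fitted with limma 3.58.1 (R 4.3.3) on log2(value + 1), with 1 mean per time point, 1 variance estimate over 12 libraries and an intensity trend, and called at a Benjamini-Hochberg adjusted p under 0.05. On data simulated for P14 versus P7 (15220 genes), limma called 42 of 100 genes with a log2 change of 2 and 6 of 98 with a change of 1, and 2 of 15020 unchanged genes. Far fewer genes changed there than in the data, where 10.8% of all genes rose and 10.0% fell in this step. The adjustment was therefore stricter in the simulation, and its shares do not give the power of the real comparison. Alternatives were edgeR 4.0.16 and DESeq2 1.42.0 on the recovered reads, other scalings, pseudocounts of 0.1 and 10, other filters, a replicate block, and each library left out. Pairs of libraries of 1 age all differed beyond sampling noise (chi-square per gene 9.68 to 68.9).

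The 30 genes and the lists were chosen with earlier results of these data known. Values in every library are given for genes called in 2 or more steps, for the 2 largest rises and falls of each step, and for Tfeb and Grn, and for other lists the 2 most abundant genes and the largest called changes. Lengths and exon overlaps are from GENCODE M21, and promoter windows from RefSeq, both on GRCm38.p6. No window was given for Ctsb, Ctsh or Npc1, and protein sequences were not analysed here.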

Additional observations from a re-analysis of the deposited data

How the results depend on the processing

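None of the 36 calls of the 30 genes reversed under any alternative, and 17 of them were kept under all. Scaling by library totals alone lost 17 of the 36 calls and left 8 genes called from P7 to P14 (8 higher), 3 from P14 to P28 (1 higher, 2 lower) and 8 from P1 to P28 (6 higher, 2 lower). Of all 15464 genes, this scaling called 1203 higher and 2451 lower, 456 and 1938, and 1369 and 5133 in the same 3 comparisons. Positive estimates among the 30 then numbered 25, 18 and 18 in these 3 comparisons, against 29, 22 and 25 before. That scaling moved the median of all genes to 0.10, -0.34, -0.35 and -0.66 in the 4 comparisons, and the median of the 30 genes less that of all genes was then -0.46, 0.85, 0.46 and 0.89, against -0.46, 0.86, 0.48 and 0.90 before. DESeq2 called 9 genes from P14 to P28 (8 higher, 1 lower), and 1388 higher and 1707 lower of all 15464 genes. A fit of only the 2 time points compared called 9 genes in the first step (9 lower) and 3 in the last (3 higher), and the unadjusted p with a fold threshold 2 and 8. Of all genes, the fit of 2 time points called 1349 higher and 1471 lower in the first step and 393 and 373 in the last. With 1 library left out, 2 to 5 genes were called from P1 to P7 (2 to 5 lower), 9 to 17 from P7 to P14, 2 to 6 from P14 to P28 (2 to 6 higher, 0 to 2 lower) and 10 to 15 from P1 to P28 (0 to 1 lower). Of all genes, 363 to 827 were then lower from P1 to P7 and 1219 to 1965 higher from P7 to P14. From P14 to P28, 449 to 1072 were higher and 793 to 1735 lower, and from P1 to P28, 1773 to 2400 and 2143 to 3351. The cause of these differences was not tested. In their deviations from the mean of their age, libraries with the same replicate number at different ages correlated at -0.029 to 0.139 (median 0.0314). Those with different numbers correlated at -0.105 to 0.0536 (median -0.0112). These ranges overlap, so that the values do not decide whether the numbers pair libraries. With a replicate block 4, 15, 5 and 13 genes were called, and 1 call was lost, that of Ppt1 at P7 (adjusted p = 0.0635). Of all genes, the block fit called 536 higher and 627 lower, 1638 and 1515, 816 and 1320, and 2244 and 3090 in the 4 comparisons. The shallowest library held 6399499 reads, and Naglu, at 1 to 22 reads at P28, was the gene most limited by depth.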
